A study of Drosophila melanogaster with 2 samples.

Results

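Cytosolic ribosomal protein genes encode the protein subunits of the ribosomes that translate nuclear mRNAs, and their promoters were examined for binding of E2f2 in whole Drosophila melanogaster embryos. The genes were taken as all protein-coding genes of the dm6 annotation whose symbol starts with RpL or RpS followed by a digit or P, plus sta, which encodes the small-subunit protein RpSA. This gave 93 of the 13968 protein-coding genes on the chromosome arms, 54 of the large subunit and 39 of the small subunit. E2f2 was mapped by chromatin immunoprecipitation followed by sequencing (ChIP-seq), in which DNA fragments attached to a protein are recovered with an antibody and sequenced. The flies expressed E2f2 fused to eGFP, and the antibody was directed against GFP. Embryos were collected over 0 to 24 h and the chromatin was sheared to 200 to 800 bp. Both samples (n = 2) carry this one genotype and treatment and are labelled as biological replicates. The series therefore holds no contrast between conditions, and no untagged or input library was analysed here. Whole embryos hold many cell types and stages, so a peak cannot be assigned to any one of them, and peak lists carry no expression values with which to check the labelled stage.

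Ribosomal proteins are needed in near equal numbers, and their genes are among the most highly transcribed in growing cells. In Drosophila, loss of 1 copy of many of them gives the Minute phenotype of slow development and short bristles. Most of these genes start transcription at a pyrimidine-rich initiator called the TCT element, and the TBP-related factor Trf2 and the DNA-binding factors Dref and M1BP are known to act at their promoters. E2f2 is the mainly repressing E2F protein of the fly, and binds promoters together with Dp and the retinoblastoma family proteins.

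E2f2 peaks lay at the promoters of most ribosomal protein genes. A gene was counted as bound when a peak summit was found at most 500 bp from one of its transcription start sites (TSSs) in the annotation. In the conservative list made from both replicates, 77 of the 93 genes (82.8%, exact 95% interval 73.6 to 89.8) were bound, whereas 40.7% of all protein-coding genes were. The large subunit had 42 of 54 genes bound (77.8%, 64.4 to 88.0) and the small subunit 35 of 39 (89.7%, 75.8 to 97.1), so the intervals of the subunits overlapped. The intervals cover counting error over genes only. No summit was counted for more than 1 of the 77 bound members, though a summit could also be counted for a gene outside the family.

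The share was lower in replicate 1, whose list is shorter. In the list of replicate 1 (5002 peaks), 65 of the 93 genes (69.9%, 59.5 to 79.0) were bound, with 33.5% of all protein-coding genes. In the list of replicate 2 (8250 peaks) it was 77 genes (82.8%), with 42.1% of all. In the larger list made from both replicates it was 76 genes (81.7%), with 44.1% of all. The members' share thus lay above that of all genes in each of the 4 lists. By subunit, replicate 1 had 28 of 39 small-subunit and 37 of 54 large-subunit genes bound, and replicate 2 had 33 and 44.

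Peak strength at these genes had a median close to that of all bound genes when the strongest summit within 500 bp was taken, and a lower one when each summit went to the nearest TSS only. Strength is given as the signal value that the authors' peak caller assigned to each peak. The scale of this value and the read depth behind it are not stated in the labels or file records, so it is used only to describe and rank peaks within a list. Among the 77 bound genes the median signal value was 260 (quartiles 124 and 512, range 44.2 to 2306), and among all 5681 bound genes it was 252. With each summit given to the nearest TSS only, the medians were 178 and 248. The median over the 500 bp window was 274 in the large subunit and 188 in the small subunit. With the nearest TSS only these medians were 178 and 180, so the gap between subunits depended on the rule. Of the 77, 10 (13.0%) had a peak among the 1000 strongest of the list, against 19.2% of all bound genes.

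**Figure D1:**
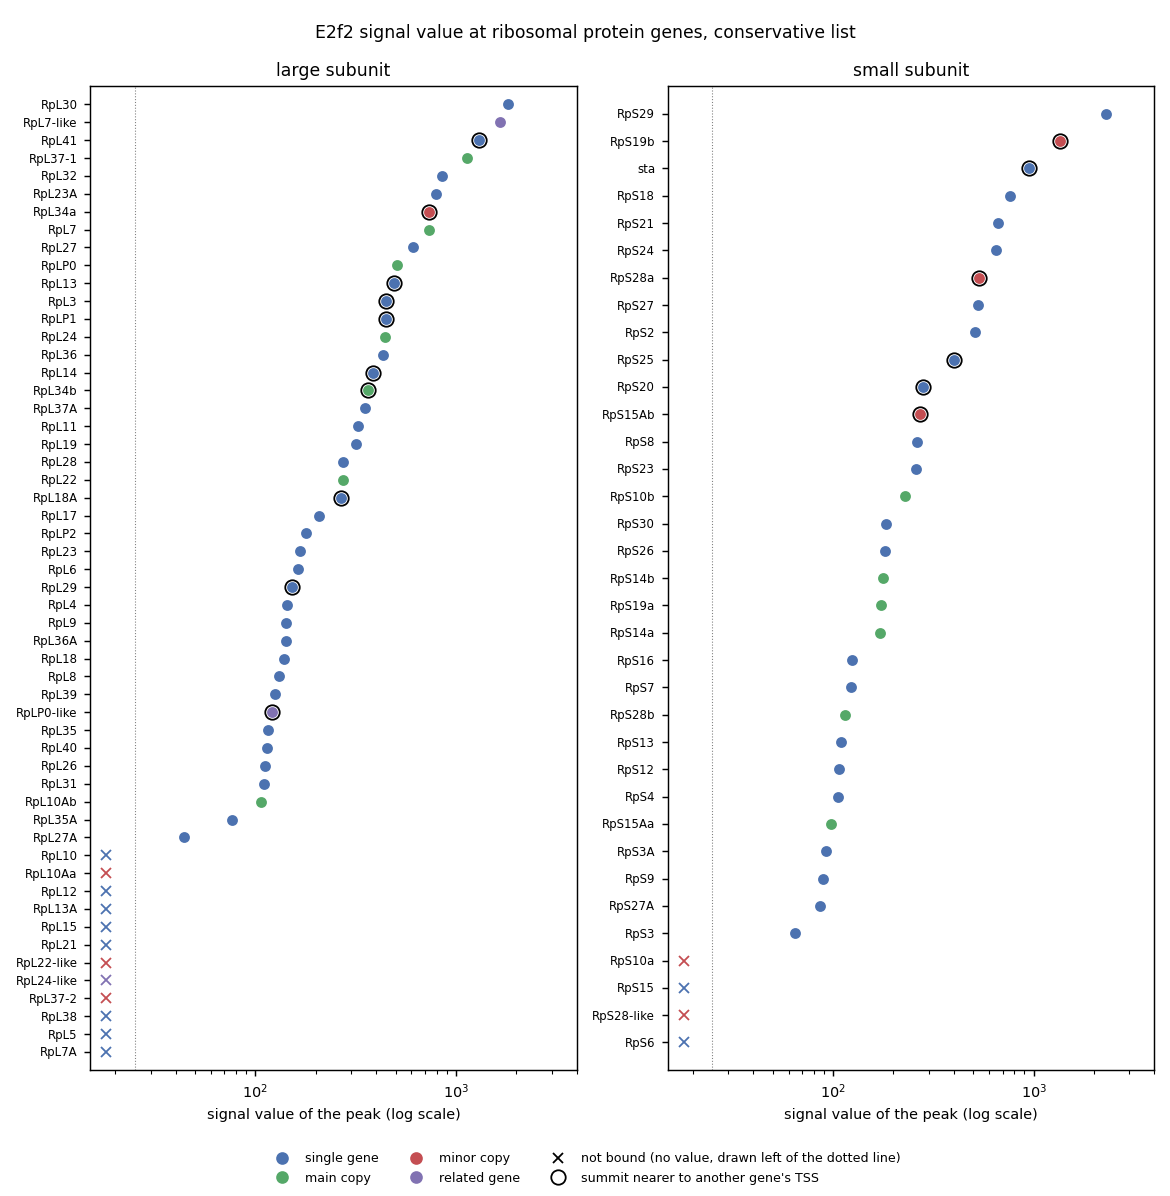
Signal value of the strongest E2f2 peak within 500 bp of a TSS for the ribosomal protein genes shown here, on a log scale, with 1 point per gene. Colours give single genes, main and minor copies of duplicated genes and related genes, crosses on the left are the 16 genes that were not bound, and open rings mark the 16 bound genes whose summit lay nearer to another gene's TSS. RpS29 (2306) and RpL30 (1808) lead the small and the large subunit, and RpL27A (44.2) has the lowest value.

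The small subunit held the strongest peak of all. RpS29, a zinc-binding protein of the small-subunit head, had a signal value of 911 in replicate 1, 1395 in replicate 2 and 2306 in the conservative list, with the summit 43 bp upstream of its TSS. RpS19b, the minor copy of the gene for a protein needed to mature the small-subunit RNA, had 464 in replicate 1, 894 in replicate 2 and 1358 in the conservative list. RpS29 had its own TSS nearest to the summit, whereas the summit of RpS19b lay 335 bp upstream of its TSS and 47 bp from that of the neighbour CG5854. The next in the conservative list were sta at 952, RpS18 of the subunit head at 762 and RpS21, whose protein interacts with that of sta in flies, at 661. In the sta promoter the summit lay 38 bp from the TSS of sta and 28 bp from that of inc, which is transcribed the other way.

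In the large subunit the leading genes differed in size, function and neighbourhood. RpL30, which in budding yeast represses the splicing of its own transcript, had a signal value of 605 in replicate 1, 1198 in replicate 2 and 1808 in the conservative list. RpL7-like, related to the yeast large-subunit assembly factor Rlp7, had 549 in replicate 1, 1150 in replicate 2 and 1653 in the conservative list. Both were in both replicates and had their own TSS nearest, at 100 bp and 59 bp. RpL41, the gene of the smallest ribosomal protein, had 1309 in the conservative list, and its summit was 8 bp from the TSS of NaCP60E, a sodium channel gene. RpL37-1, which encodes a zinc-binding protein, had 1134 with the summit 446 bp upstream. RpL32, widely used as a reference transcript in flies, had 854 with the summit 96 bp upstream.

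The weakest peaks were in part absent from the single-replicate lists. The lowest in the large subunit were RpL27A at 44.2, RpL35A at 76.7 and RpL10Ab, a protein of the L1 stalk, at 106. The lowest in the small subunit were RpS3 at 64.9, RpS27A at 86.3 and RpS9, a protein near the mRNA entry, at 89.0. RpL27A was in the lists of both replicates at 37.7 and 49.2, whereas RpL10Ab and RpS3 were in neither.

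The TSS windows of the 4 strongest genes are printed from 20 bases before the main TSS to 25 bases from it, since they show how the start sites of these genes are built. Capitals mark a TCT initiator, searched as TCTTTC or CCTTTC, or as either of them with T as the last base, on the strand of the gene with its second base as the start. Sequences are from the RefSeq copy of the Release 6 assembly (dm6), read 5′ to 3′ on the strand of the gene. RpS29 is at chr3R:9778022-9778066 (+), RpL30 at chr2L:19009213-19009257 (-), RpL7-like at chr2L:12056328-12056372 (+) and RpS19b at chr3R:23933506-23933550 (-).
RpS29: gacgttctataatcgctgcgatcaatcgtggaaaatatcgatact
RpL30: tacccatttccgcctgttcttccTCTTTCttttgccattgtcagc
RpL7-like: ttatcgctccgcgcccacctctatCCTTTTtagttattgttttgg
RpS19b: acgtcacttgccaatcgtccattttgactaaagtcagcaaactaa
RpL30 and RpL7-like thus hold the initiator within 5 bp downstream of the main TSS, and the windows of RpS29 and RpS19b hold none. RpS29 has another annotated TSS outside the main one, and an initiator lies within 10 bp of that TSS.

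The initiator was common in the family, at similar shares in bound and unbound members. It lay within 5 bp of the main TSS in 40 of the 93 genes (43.0%, 32.8 to 53.7), against 205 of 13968 protein-coding genes (1.47%). Within 10 bp it was in 58 of 93 (62.4%) against 2.86% of all, and within 10 bp of any annotated TSS in 75 of 93 (80.6%) against 4.09% of all. In 56 of the 58 genes it lay downstream of the annotated TSS, by a median of 4 bp, and in none did it start exactly at the main TSS. Of the bound genes 33 of 77 (42.9%) had it within 5 bp, and of the unbound 7 of 16 (43.8%, 19.8 to 70.1). Turned around, 33 of 40 genes with the initiator were bound and 44 of 53 without it. Among the single and main genes 8 had no such initiator within 10 bp of any TSS, RpL12, RpL17, RpL26, RpS12, RpS2, RpS20 and sta among them, and 7 of the 8 were bound, RpL12 being the exception.

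**Figure D2:**
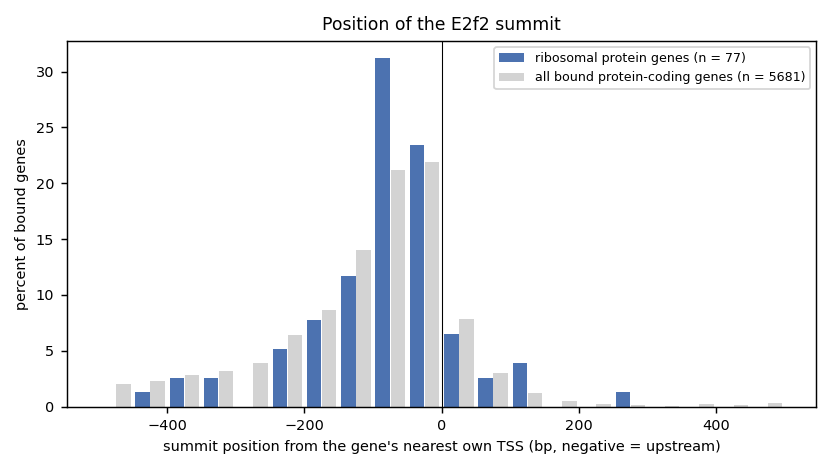
Position of the strongest summit relative to the nearest TSS of the gene, in bins of bp, as the percent of 77 bound ribosomal protein genes (blue) and of all 5681 bound protein-coding genes (grey). Both distributions have most summits upstream of the TSS, at 85.7% and 86.3%.

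E2f2 summits lay just upstream of the ribosomal protein genes, where they lay in other bound genes. The summit was upstream of the TSS in 66 of 77 genes (85.7%; all bound genes 86.3%). The median position was 68.0 bp upstream (quartiles 30 and 126), against 81.0 bp (31.0 and 172) in all bound genes. In 51 genes (66.2%) it lay within the 150 bp before the TSS, against 57.2% of all bound genes. By annotation 58 summits were intergenic, 9 were in an intron, 9 in a 5′ UTR, 1 in a 3′ UTR and 0 in a coding exon. These classes take in features of any protein-coding gene. At RpL13 and RpL3 (5′ UTR) and RpL41 (intron) the summit lay outside the ribosomal protein gene itself. Among the summits farthest upstream were those of RpL37-1 at 446 bp and RpS23 at 394 bp. Narrowing the window to 250 bp would drop 4 members, these and RpS19b among them.

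Many ribosomal protein genes share their promoter region with a gene transcribed the other way. A head-to-head neighbour, meaning a TSS on the other strand at most 1000 bp upstream, was present in 55 of the 93 genes. Of these 50 (90.9%, 80.0 to 97.0) were bound, and of the 38 others 27 (71.1%, 54.1 to 84.6). Among all protein-coding genes the corresponding shares were 66.4% and 27.0%, and the members' share was the higher in each class. In 16 of the 77 bound genes (20.8%; all bound genes 26.0%) the strongest summit was nearer to another gene's TSS than to the gene's own. The 6 strongest of these 16 were RpS19b, RpL41, sta, RpL34a, RpS28a and RpL13. RpL13 shared its region with Dref, the gene of the DRE-binding factor. The summit (494) lay 246 bp upstream of RpL13 and 162 bp from the TSS of Dref. A peak between such genes cannot be assigned to one of them from these lists.

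Among duplicated genes, every main copy was bound in the conservative list and the minor copies were divided. Several ribosomal proteins have paralogous genes in the fly, of which a main copy is widely expressed and a minor copy is often restricted to the germ line. The assignment of copies rests on general knowledge, not on these files. All 14 main copies were bound, counting both RpS14 genes as main and including RpL7, RpL24 and RpLP0, which have a related gene. Of the 10 minor copies 5 were (50%, 18.7 to 81.3), an interval that holds the 40.7% of all protein-coding genes. In the lists of replicates 1 and 2, 12 and 13 of the 14 main copies were bound, and 5 of the 10 minor copies in each. Single genes and main copies together had 70 of 80 bound (87.5%, 78.2 to 93.8), and the intervals of the 2 classes overlapped. The bound minor copies had a median signal value of 588, against 198 for single genes and main copies.

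The signal at the bound minor copies was mostly nearer to their neighbours. In 4 of the 5 the strongest summit was nearer to a neighbour: CG5854 for RpS19b, Trmt61 at 68 bp for RpL34a, Mgat2 at 133 bp for RpS28a, and Lsm10 at 3 bp for RpS15Ab. In the fifth its own TSS was nearest. RpS28a also differed in that its summit (536) lay 294 bp downstream of its TSS. When each summit was given only to the nearest TSS, 2 of the 10 minor copies were bound, among them RpS28a through a weaker summit. Under that rule 65 of the 93 members (69.9%) and 31.6% of all protein-coding genes were bound. All 5 bound minor copies had a higher value than their main copy, as 1358 against 173 for RpS19b and RpS19a and 733 against 366 for RpL34a and RpL34b. Which RpL34 copy is the main one is less certain than for the others, and exchanging them left the counts at 70 of 80 and 5 of 10. RpS14a and RpS14b, adjacent copies that encode the same platform protein, were both bound at 171 and 178, RpS14a in replicate 2 only.

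**Figure D3:**
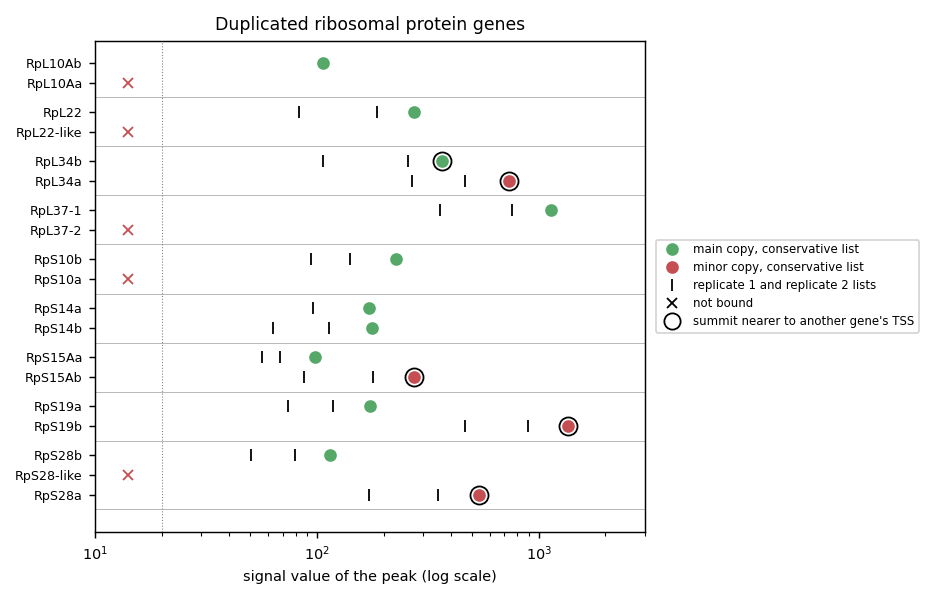
Signal value (log scale) of the main copy (green) and the minor copy (red) of duplicated ribosomal proteins in the conservative list, with the values of the lists of replicate 1 and replicate 2 as ticks. Crosses are unbound copies, and rings mark summits nearer to another gene's TSS. The 4 bound minor copies drawn carry a ring, and 5 minor copies are unbound.

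Of the unbound minor copies, RpL10Aa and RpS10a are shown beside their bound main copies because the pairs differ in both binding and start site. RpL10Ab had a signal value of 106 in the conservative list and was in neither replicate list, and RpL10Aa was in none. RpS10b had 93.5 in replicate 1, 141 in replicate 2 and 228 in the conservative list, and RpS10a was in none. The windows follow the same rule, in dm6: RpL10Ab at chr3L:11822831-11822875 (+), RpL10Aa at chr3R:15037346-15037390 (+), RpS10b at chrX:19598020-19598064 (+) and RpS10a at chr3R:27652740-27652784 (+). Capitals mark the TCT initiator.
RpL10Ab: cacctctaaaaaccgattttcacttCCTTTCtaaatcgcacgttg
RpL10Aa: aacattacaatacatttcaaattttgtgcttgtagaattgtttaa
RpS10b: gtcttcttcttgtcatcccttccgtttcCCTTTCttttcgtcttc
RpS10a: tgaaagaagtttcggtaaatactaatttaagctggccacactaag
The bound copies hold an initiator within 10 bp of the main TSS and the unbound copies do not. It lay 6 bp downstream in RpL10Ab and 9 bp downstream in RpS10b, so neither has one within 5 bp. Over the whole family this did not hold as a rule, since RpL37-2, an unbound minor copy, has an initiator within 5 bp, and of the 10 minor copies 2 had one. The other unbound minor copies were RpL22-like and RpS28-like.

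Of the 3 related genes, whose yeast counterparts are large-subunit assembly factors, RpL7-like and RpLP0-like were bound. RpLP0-like had 40.5 in replicate 1, 85.2 in replicate 2 and 121 in the conservative list, with the summit nearer to 14-3-3zeta. RpL24-like was in the lists of replicate 1 (64.9) and replicate 2 (91.9) and in the larger list (161), though not in the conservative list.

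Values are given next for a few parts of the ribosome, which do not cover all its proteins and were chosen with earlier results known. Since 82.8% of all members and 40.7% of all protein-coding genes were bound, full binding of such small groups does not set them apart. The P stalk, which recruits translation factors, was bound at all 3 genes: RpLP0 at 508, RpLP1 at 446 and RpLP2 at 178, the last in replicate 2 only. In the 5S particle, whose free proteins inhibit Mdm2 in mammals, RpL11 was bound at 326 and RpL5 was not. Both genes of ubiquitin fusions were bound, RpL40 at 114 and RpS27A at 86.3. The proteins lining the exit tunnel were bound at RpL17 (208), RpL4 (144) and RpL39 (126), and those at its docking site for targeting factors at RpL23A (797) and RpL35 (115). At the mRNA entry RpS2 had 512, RpS30 184 and RpS3 64.9, a wide range within 1 functional site. On the platform and at the mRNA exit RpS26 had 182 and RpS28b 115. RpS6, the classic target of S6 kinase, was not bound.

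The replicates agreed on most members. Of all 93 members, 64 (68.8%) were in the lists of both replicates. Of the 77 bound genes, 63 (81.8%) were in both, against 78.2% of all bound genes. The conservative list was itself made from both replicates, so the overlap of bound genes is no independent check. RpS12, which flies need for Xrp1-dependent cell competition, was in replicate 1 only. Another 11 were in replicate 2 only, among them RpLP2, RpL6, RpL29, RpL31, RpL39, RpS3A, RpS7, RpS9, RpS14a and RpS27A. All 11 had conservative-list signal values of 178 or lower, below the median of 260. RpL9, RpL26 and RpL31 were in the conservative list and absent from the larger one.

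Signal values were higher in replicate 2 at nearly all members. Among the 64 members in both lists the ratio of replicate 2 to replicate 1 had a median of 1.71, from 0.905 at RpL23 to 2.85 at RpS23, and was above 1 in 62 of 64. The median over all genes in both lists was 1.80, so the members shared the offset of the whole lists. Over 84 members with a ranked entry in both replicates, Spearman's rho between the replicates was 0.934, and over all 8392 such genes it was 0.942. These are descriptions across genes, which are not independent replicates.

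**Figure D4:**
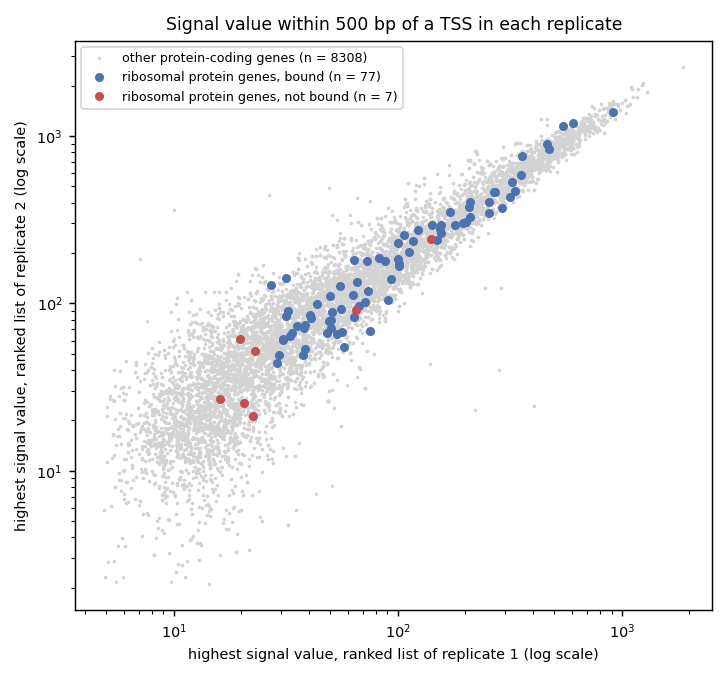
Highest signal value within 500 bp of a TSS in the ranked list of replicate 1 (x axis) and replicate 2 (y axis), both on log scales, for bound members (blue), members not bound (red) and other protein-coding genes (grey). Members follow the diagonal of all genes from low to high values, and the unbound members RpL13A, at 141 and 243, and RpL24-like, at 64.9 and 91.9, lie inside the range of the bound ones.

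The 16 unbound genes were of several kinds. They were RpL5, RpL7A, RpL10, RpL12, RpL13A, RpL15, RpL21, RpL38, RpS6 and RpS15, the 5 minor copies RpL10Aa, RpL22-like, RpL37-2, RpS10a and RpS28-like, and RpL24-like. Of the 16, 9 had no entry at all near a TSS in the ranked list from which the conservative list derives. RpL7A and RpL10, the latter near the peptidyl transferase centre, were in the list of replicate 2 at 61.7 and 51.7. RpS15, a head protein, came within a 1000 bp window. RpL12 (stalk base) and RpS6 had ranked entries of low value at 45.7 and 41.4.

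RpL13A was unlike the other unbound genes. Its ranked entry had a signal value of 141 in replicate 1, 243 in replicate 2 and 384 in the series list. The irreproducible discovery rate (IDR), a measure of disagreement between rankings of the same peaks, was given as a −log10 of 3.41, 4.16 and 4.28, all beyond the 2 that the thresholded lists require. The entry was nevertheless in none of the thresholded lists. The ranked series list holds 7493 entries at that threshold, and all 7312 of the conservative list are among them. What separates the remaining entries was not tested. With them returned, 78 of the 93 members and 41.4% of all protein-coding genes were bound.

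Among the unbound members, 5 lie near the centromeres. RpL5, RpL15 and RpL38 lie in pericentric heterochromatin, and RpL21 and RpL10 lie toward the centromeric ends of their arms. Of the 61 other protein-coding genes within 250 kb of them, 8 (13.1%) were bound. Of these 8, 7 were among the 25 around RpL10 and 1 was among the 7 around RpL38, and 0 of the 5, 3 and 22 around RpL5, RpL15 and RpL21 were bound, a gene near both RpL5 and RpL21 being counted in each. Over the 61, 31.1% had any ranked entry near a TSS, against 70.6% of all genes. The neighbourhood was examined after these values had been seen. What else these regions have in common was not tested.

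Binding by chromosome arm followed no single pattern. It was 16 of 19 members on 2L (all genes of the arm 37.6%), 16 of 21 on 2R (42.8%), 12 of 14 on 3L (39.9%), 19 of 23 on 3R (40.3%) and 13 of 15 on X (44.5%). RpS3A, the 1 member on chromosome 4 (21.2%), was bound at 91.9. The intervals of the arms overlapped. In 29 members an intron or exon holds a small nucleolar RNA gene, 76 in all. Of these hosts 24 of 29 (82.8%) were bound, and of the 64 other members 53 (82.8%).

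Sequence matches near the summits were then counted. A match within 100 bp of the summit, on either strand, describes the window and is no evidence of a site in use. The E2F words TTTCCCGC, TTTCGCGC, TTTGCCGC and TTTGGCGC were found at 3 of the 77 bound members (3.90%, 0.811 to 11.0), RpL41 and RpS3 among them, against 8.78% of all bound genes. Within 100 bp of the main TSS they were found in 0 of 93 members (exact interval up to 3.89%), against 4.65% of all genes. The CHR words TTTGAA and TTCGAA were at 35 (45.5%, 34.1 to 57.2) against 49.7%.

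The DRE and the E-box were found at larger shares of members than of bound genes in general. The DRE, TATCGATA, which Dref recognises, was at 23 of 77 (29.9%, 20 to 41.4) against 16.0% of all bound genes. The E-box CACGTG, recognised by Myc and Max, was at 8 (10.4%, 4.59 to 19.4) against 2.97%. The Motif 1 core GGTCACAC, recognised by M1BP, was at 6 (7.79%, 2.91 to 16.2) against 12.8%, a share that the interval holds. Around the main TSS the DRE was in 28% of members against 7.74% of all genes the E-box in 17.2% against 2.81%, and the Motif 1 core in 11.8% (6.05 to 20.2) against 6.79%. DRE and CACGTG read the same on both strands.

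**Figure D5:**
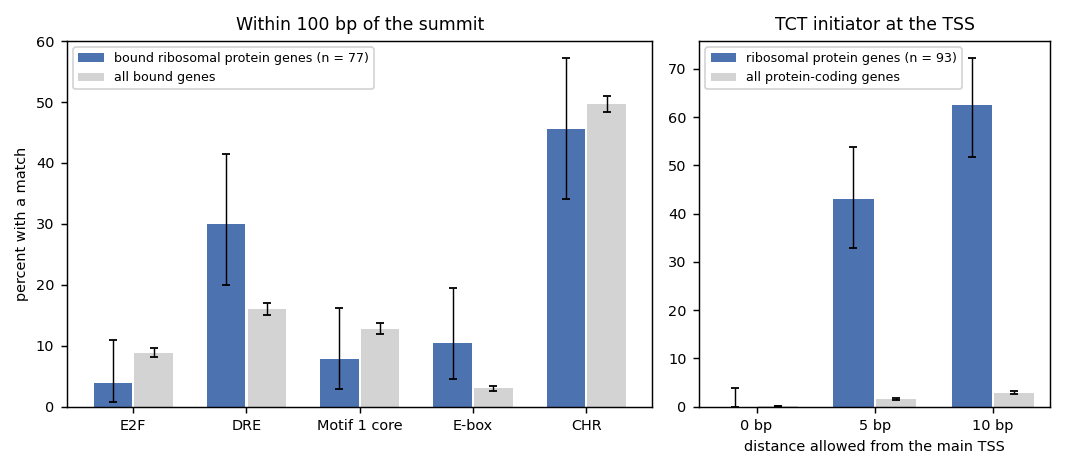
Left, percent of bound ribosomal protein genes (blue) and of all bound genes (grey) with a match of each word within 100 bp of the summit. Right, percent of the 93 genes and of all protein-coding genes with a TCT initiator at the given distance from the main TSS. Bars are percentages with exact 95% intervals. The DRE stands at 29.9% against 16.0% and the initiator within 5 bp at 43.0% against 1.47%.

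Windows of 30 bases around the matches nearest the summit are given for a few strong members, chosen after their values were seen, and for the E2F match of RpS3, with the word in capitals. The DRE of RpL7-like is at chr2L:12056300-12056329 (+), 48 bp from the summit, and that of RpL27 at chr3R:25685073-25685102 (+), 26 bp from it. The E-box of RpL7 is at chr2L:10201008-10201037 (+), 29 bp from the summit, and its Motif 1 core at chr2L:10200979-10201008 (-) lies at the summit itself. The E2F word of RpS3 is at chr3R:23358979-23359008 (-), 49 bp from the summit.
RpL7-like, DRE: cacacatcactTATCGATAgcaaagcactt
RpL27, DRE: cgtcgtcttttTATCGATActtagtggcaa
RpL7, E-box: tggcgcgcgtgtCACGTGtgcacgcatttc
RpL7, Motif 1 core: atcggccaaacGGTCACACtggccgcggag
RpS3, E2F: agccgatggatTTTCGCGCtttccggccgg
RpL7, a large-subunit protein whose gene starts 30 bp from that of Ripalpha on the other strand, had a signal value of 730 with the summit 10 bp upstream. Longer stretches show how the words lie relative to the TSS in RpS10b, from 100 bases before its main TSS to 25 bases from it at chrX:19597940-19598064 (+), and in RpS29, from 150 bases before to 30 bases from it at chr3R:9777892-9778071 (+). In RpS10b the DRE, in capitals, begins 86 bp before the main TSS and 3 bp from the summit, and the second word in capitals is the TCT initiator. In RpS29 the DRE lies 15 bp downstream of the main TSS.
RpS10b: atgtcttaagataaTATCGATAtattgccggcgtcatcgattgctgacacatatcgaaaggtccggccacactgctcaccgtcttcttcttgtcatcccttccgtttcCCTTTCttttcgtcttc
RpS29: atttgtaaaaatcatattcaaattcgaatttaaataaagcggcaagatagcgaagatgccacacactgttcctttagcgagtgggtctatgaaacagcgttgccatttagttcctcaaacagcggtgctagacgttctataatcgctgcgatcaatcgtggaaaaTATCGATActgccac
The strongest and a moderate member thus carry the same word on opposite sides of the main TSS. RpS29 has 2 annotated TSSs, and where its DRE lies relative to the other, downstream one was not examined.

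Genes that work with the ribosomal proteins were counted in the same way, beside the 40.7% of all protein-coding genes in the conservative list. Of 9 translation elongation factors and ribosome partners, 7 were bound (77.8%), including eEF1gamma at 433, eEF5 at 346 and the ribosome-associated protein Rack1 at 142, and eEF1alpha2 and eEF1delta were not. Of 18 ribosome biogenesis genes, 13 were bound (72.2%), with Ns2 at 489 and Nop60B, the pseudouridine synthase of box H/ACA particles, at 337 among them, and nop5, Nop56, bys, Tif-IA and RIOK2 were not. Of 8 factors that regulate ribosomal protein promoters or sense their dosage, 5 were bound: pzg at 1125, Dref at 494, Irbp18 at 196, Max at 158 and Trf2 at 119. The summits of pzg, Irbp18, Max, Ns2 and Nop60B lay nearer to the TSS of another gene. The peaks counted for Dref and for Mybbp1A, a bound biogenesis gene, were also those counted for RpL13 and RpL36. Myc, Xrp1 and M1BP were not bound in the conservative list, M1BP being in the list of replicate 2 at 73.1. In replicates 1 and 2 the counts were 4 and 5 of 9, 9 and 11 of 18, and 3 and 6 of 8, against 33.5% and 42.1% of all protein-coding genes.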

How the data were processed

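Peaks of E2f2-eGFP in 2 biological replicates of whole embryos were analysed. Per the labels, coordinates are dm6 and fragments were 200 to 800 bp. No label or file record names the aligner, the peak caller or the read depth. The records deposited beside the lists trace each ranked list to the alignments and a control, and each thresholded list to ranked lists and an undescribed input. The deposited signal value and the deposited −log10 IDR were used as they stand, and the deposited offset gave the summit. In each ranked list of the series 8 per-replicate columns carry no names and were not used.

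A gene was bound when a summit lay within 500 bp of any TSS of the Ensembl release 115 annotation, and took the strongest such summit. Coordinates count from 1. Counts, medians and exact Clopper-Pearson intervals (95%) were computed with Python 3.11.15, pandas 2.3.3, numpy 2.4.6 and scipy 1.17.1, and drawn with matplotlib 3.10.9. The counting was tested on simulated data. With 1 group there is no test between groups. Genes named were the 5 strongest and 3 weakest bound members of each subunit, all unbound members, members in the list of 1 replicate, duplicated genes, structural groups and up to 6 members with a nearer neighbour. A few members are not reported here by name, though counts and medians include them. Other genes, words and sequences were chosen after their values were seen. Alternatives were the other lists, other windows, the nearest summit or TSS, the strongest peaks and other word windows. The members and all lists were chosen with earlier results of these data known.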

Additional observations from a re-analysis of the deposited data

How the results depend on the processing

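Of 149 alternative values, 100 stayed within 1.5 times the count or within the spread used, and 49 moved. Counts from only the strongest peaks cannot rise, and narrower or wider word windows can only lower or raise the matches. The tally is therefore no measure of robustness. With only the 1000 strongest peaks, 10 members (10.8%) were bound, against 1092 of all protein-coding genes (7.82%). By subunit these were 6 large and 4 small, and by class 8 single or main genes, 1 minor copy and 1 related gene. With the stronger part of the list (3656 entries), 46 members (49.5%) were bound, against 3750 of all protein-coding genes (26.8%). By subunit these were 25 large and 21 small, and by class 40 single or main genes, 5 minor copies and 1 related gene. With each summit given to the nearest TSS only, 65 members (69.9%) were bound, 2 minor copies and 1 related gene among them, against 31.6% of all protein-coding genes. In the separate replicate lists the median signal value was 101 to 167 for all members, 106 to 170 for the large and 91.9 to 141 for the small subunit, 101 to 141 for single and main genes, 208 to 374 for minor copies, 64.9 to 91.9 for related genes and 109 to 158 for all genes. The members' median was 196 with the nearest summit of each gene, 188 with a 250 bp window and 178 with the nearest TSS only. These lay below the 223, 249 and 248 of all bound genes. With the nearest TSS only the large subunit's median was 178 and the small subunit's 180. With a 1000 bp window the small subunit's median was 239 and that of single and main genes 235. The minor copies' median was 430 with a 250 bp window and 392 with the nearest TSS only, and that of related genes 161 in the larger list and 1653 with the nearest TSS only. The TCT initiator began exactly at the main TSS in 0 members. Within 50 bp of the summit the E2F words were at 1 bound member, the DRE at 11, Motif 1 at 2, the E-box at 4 and CHR at 23, and within 250 bp E2F was at 9, Motif 1 at 16, the E-box at 17 and CHR at 53. No paired analysis was possible because the samples form 1 group. Restoring the absent ranked entries and exchanging the RpL34 copies were chosen after seeing the data.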
